A study of Mus musculus with 12 samples.

Results

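The proteasome genes were described here as 1 group across muscle stem cells and their neighbours. All genes whose symbol runs Psma to Psmg followed by a digit were taken, apart from Psmb8, Psmb9 and Psmb10, the interferon-inducible catalytic subunits. This gave 45 of the 12393 genes with a probe set of their own on the Affymetrix Mouse 430A array, held by 82 probe sets. A probe set is a group of short oligonucleotides on the array that reads 1 transcript. Of the 45 genes, 43 encode subunits, activators, an inhibitor or assembly factors. Psmc3ip and Psme3ip1 met the rule by symbol alone: they encode proteins named for binding a subunit or an activator. A minimum of 47.03 on the mean scaled signal was set for testing, which 44 of the genes and 68 of the probe sets passed. Psma8, the alpha subunit gene of the testis, did not pass.

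C57BL/6J mice aged 8 to 12 weeks gave cells sorted from the muscles of their hind limbs, and RNA of each sample was read on 1 array, 4 arrays a group. Quiescent satellite cells (QSC), the resident stem cells of muscle, bound the antibody SM/C-2.6 and were taken straight after the sort, with more than 97% positive for Pax7. Activated satellite cells (ASC) came from the same sorted fraction, grown for 4 days in medium with 20% fetal calf serum and 2.5 ng/ml basic fibroblast growth factor, with more than 99% positive for MyoD. Non-myogenic cells (NMC) bound neither SM/C-2.6 nor the leukocyte antibody against CD45, were taken straight after the sort, and held less than 1% myogenic cells. Only ASC were cultured, so activation, culture and the time since the sort cannot be told apart. No label tells whether the replicates were separate animals or cultures, so every p-value here covers only how far these samples spread, part of which may be technical.

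The proteasome is the barrel-shaped protease that breaks down proteins tagged with ubiquitin. Its core particle stacks rings of alpha subunits, which form the gate, around rings of beta subunits, of which Psmb5, Psmb6 and Psmb7 carry the cutting sites. A regulatory particle caps the core: its base holds a ring of ATPases that unfold the substrate, and its lid holds the enzyme that removes ubiquitin. Other caps, such as those built from Psme1, Psme3 or Psme4, open the gate without ATP, and dedicated chaperones help the rings to assemble. In muscle the proteasome is best known for protein loss during atrophy, and dividing cells need it to destroy cyclins.

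The promoters of 6 genes are shown because the members changed mostly together: Psma1, Psmb5, Psmc5 and Psmd6 had the largest change of their ring, base or lid, and Psme3 and Psme1 were activator genes that changed in opposite directions. Each line gives the 150 bases before the RefSeq start of the gene (GRCm38.p6), 5′ to 3′ on the strand of the gene. Capitals mark a match to 1 of 7 motifs searched on both strands. The motifs were the core of the antioxidant response element that NFE2L1 and NFE2L2 bind (TGACNNNGC), the CCAAT box bound by NF-Y (CCAAT), an ETS site (CCGGAAG), an E2F site (GGCGGGAA), the canonical E-box (CACGTG), an NRF1 site (GCGCATGC) and the core of the interferon-stimulated response element (GAAANNGAA).

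Psma1: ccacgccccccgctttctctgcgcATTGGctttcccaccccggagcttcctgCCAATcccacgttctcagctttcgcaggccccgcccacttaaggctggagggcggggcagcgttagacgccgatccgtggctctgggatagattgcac
Psmb5: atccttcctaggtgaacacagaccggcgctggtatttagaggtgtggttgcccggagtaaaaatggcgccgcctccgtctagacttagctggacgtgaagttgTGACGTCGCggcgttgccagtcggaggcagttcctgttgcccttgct
Psmc5: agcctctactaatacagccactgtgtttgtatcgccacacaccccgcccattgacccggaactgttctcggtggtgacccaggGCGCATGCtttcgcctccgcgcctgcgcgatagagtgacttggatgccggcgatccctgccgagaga
Psmd6: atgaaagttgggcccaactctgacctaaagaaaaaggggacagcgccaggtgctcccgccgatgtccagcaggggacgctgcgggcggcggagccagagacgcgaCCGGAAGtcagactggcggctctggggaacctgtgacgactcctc
Psme3: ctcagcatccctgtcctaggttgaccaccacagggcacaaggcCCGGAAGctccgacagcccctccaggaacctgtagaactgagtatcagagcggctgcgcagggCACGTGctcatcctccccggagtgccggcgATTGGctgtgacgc
Psme1: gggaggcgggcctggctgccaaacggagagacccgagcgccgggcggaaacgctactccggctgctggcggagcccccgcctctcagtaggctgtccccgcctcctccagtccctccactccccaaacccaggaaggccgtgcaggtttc

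These stretches lie at chr7:114276117-114276266 (minus strand) for Psma1, chr14:54617996-54618145 (minus strand) for Psmb5, chr11:106256035-106256184 (plus strand) for Psmc5, chr14:14120946-14121095 (minus strand) for Psmd6, chr11:101316063-101316212 (plus strand) for Psme3 and chr14:55578344-55578493 (plus strand) for Psme1. The Psma1 promoter held CCAAT boxes starting 126 and 98 bases before the start, the Psmb5 promoter an antioxidant response element core at 47, the Psmc5 promoter an NRF1 site at 67 and the Psmd6 promoter an ETS site at 45. The Psme3 stretch held an ETS site at 107, an E-box at 44 and a CCAAT box at 14, and none of the 7 motifs was found in the Psme1 stretch. Over the 250 bases before the start, 37 of the 45 genes matched a RefSeq entry, with 40 start sites in all. An ETS site lay in 14 of those 40 windows, against 13.9% of the 8425 windows of tested genes and 6.91% of all 32851 windows. The antioxidant response element core lay in 5 of 40, in Psmb5, Psmb6, Psmc6, Psmd12 and Psmd9, against 11.4% of the windows of tested genes. A CCAAT box lay in 14 of 40, against 34.8% of the windows of tested genes. A match is only a run of letters, and binding was not measured.

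The arrays carried the labelled cells. Signal of Pax7, the satellite cell transcription factor, was 1071 ± 572 (SD, n = 4) in QSC, 90.2 ± 31.7 in ASC and 4.07 ± 2.42 in NMC, and that of Myod1, the myoblast transcription factor, was 1277 ± 328, 4629 ± 1244 and 36.2 ± 3.96. QSC also carried RNA of other types: summed over 10 endothelial markers the signal ran from 2270.1 to 2708 in QSC, 98.7 to 134 in ASC and 10506 to 11483 in NMC, and over 7 fibroblast markers from 10699 to 19046, 1335 to 1529.6 and 30074 to 55476. Over 7 pericyte markers it ran from 4308 to 7360, 2148 to 4748.5 and 9747 to 18202. Over 9 myofibre markers it ran from 2735 to 8592, 1404 to 10012 and 9704 to 30023. ASC replicates 1 and 2 read 9299 and 10012 there, and ASC replicates 3 and 4 read 1404 and 1475. The leukocyte marker Ptprc was under the signal minimum, at 27.8 ± 20.7, 4.59 ± 4.43 and 27.5 ± 12.7. Summed over 11 leukocyte markers the signal ran from 227.8 to 777 in QSC, 193.6 to 268 in ASC and 308 to 585 in NMC. Of these markers 3 passed the minimum, and 2 of the 3 were called lower in ASC than in QSC, where 38.2% of all genes were. The ratio of 3' to 5' signal of Gapdh, a control that goes up as RNA degrades or is amplified, lay between 3.06 and 5.36 in QSC, 1.395 and 2.14 in ASC, and 3.27 and 5.24 in NMC. In bulk RNA fewer cells of a type and less RNA per cell cannot be told apart, and the part of these differences in the results was not tested. The arrays were labelled with a small-sample kit (2 QSC, 2 ASC and 1 NMC arrays, replicates 1 and 2 of QSC and ASC and replicate 1 of NMC) or a two-cycle kit (2, 2 and 3 arrays). In fits over arrays of both kits the kit was a term unless stated otherwise. Trimmed means of the deposited signals ran from 323 to 502 with the first kit and from 160.4 to 236 with the second, and all arrays were scaled to the same trimmed mean, so a signal is a share of the RNA of an array and not an amount per cell.

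Almost the whole proteasome was higher in activated than in quiescent satellite cells. Of the 44 genes tested, 41 rose (limma, Benjamini-Hochberg adjusted p under 0.05 over all 7960 genes), Psme1 fell, and Psmf1 and Psmg4 did not pass the test. Of all genes tested 31.8% rose and 38.2% fell. The median log2 change of the members was 1.04, against -0.11 for all genes tested. At least a 2-fold rise was called for 24 members, against 15.9% of all genes. For 39 of the 44 members the 4 ASC arrays did not overlap the 4 QSC arrays, and all of these but Psme1 were higher in ASC, where 24.8% of all genes were higher without overlap.

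All 31 measured subunits of the core, base and lid were among the genes that rose, by 1.26-fold (Psma3) to 4.34-fold (Psmc5), with a median log2 change of 1.07. The median subunit stood above its QSC mean by 0.99, 0.87, 1.42 and 1.27 on the 4 ASC arrays, in log2 units, and within -0.11 and 0.14 of it on the QSC arrays. On the NMC arrays it stood at -0.25, 0.24, 0.14 and 0.05. The median subunit thus separated ASC from both freshly sorted groups, which overlapped each other. Single subunits did so for 28 of 31 against QSC and 29 of 31 against NMC. Of all 7960 genes 4249 and 4901 had no overlap in these comparisons, in either direction. Under other scalings of the arrays the split of all genes shifted, to 38.8% higher and 26.7% lower without scaling and to 46.9% and 24.4% with median centring, while 42 members rose and 1 fell under both. The median of the members less the median of all genes was 1.15 as reported, 1.17 without scaling, 1.15 with median centring and 0.98 with quantile normalization.

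**Figure D1:**
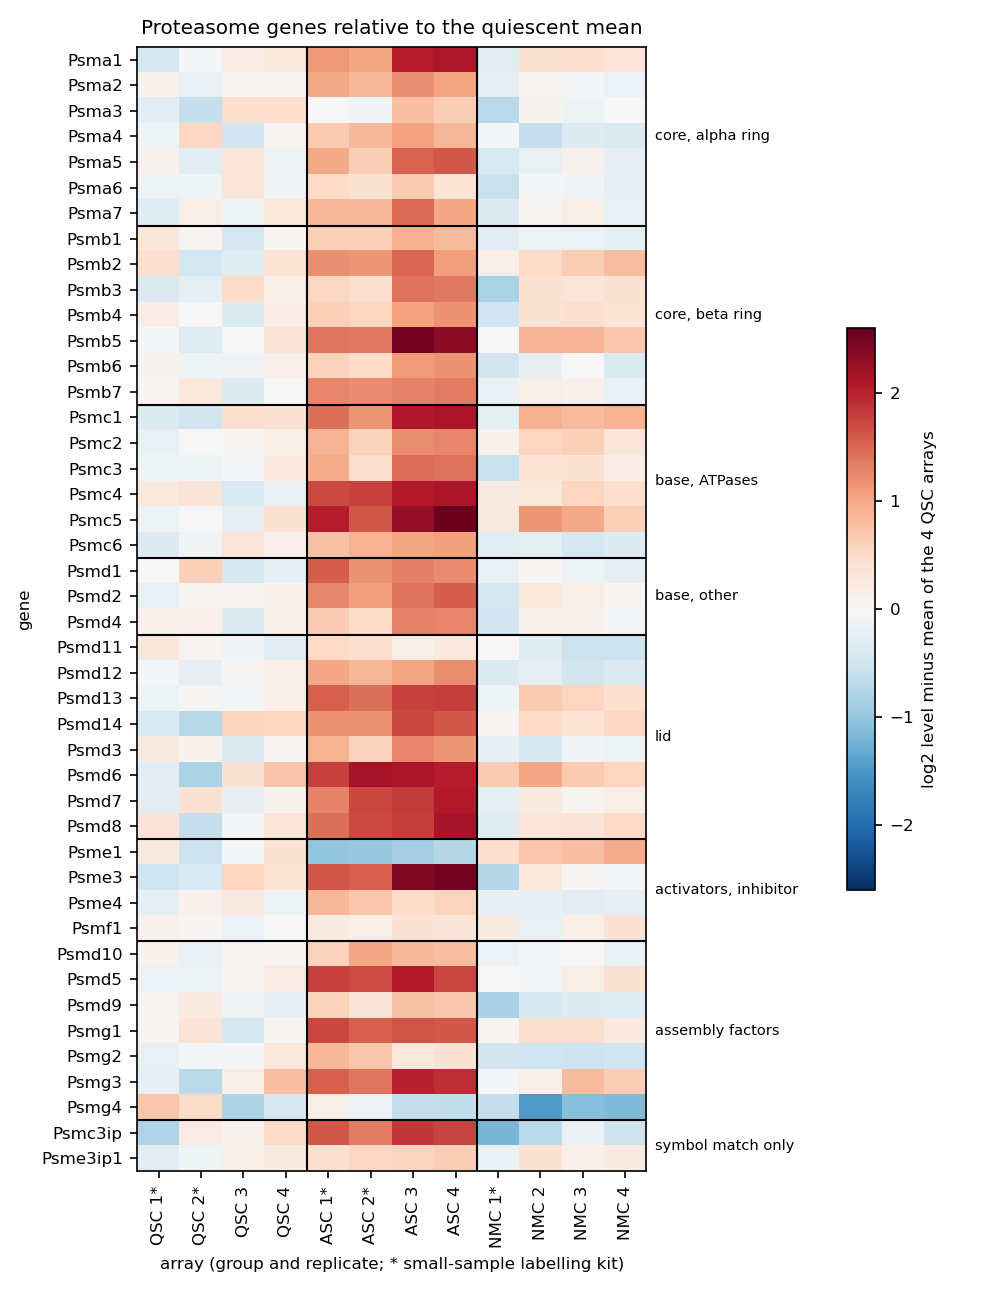
Log2 level of each of the 44 tested genes on each of the 12 arrays, minus the mean of the 4 QSC arrays of that gene (colour scale), with genes in blocks by role and arrays in columns by group. The ASC columns are red for nearly every subunit, Psme1 is blue there, and the NMC columns lie near the QSC ones.

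The alpha ring rose as a set: 7 of 7 tested genes were called higher, with a median log2 change of 1.01 and a range from 0.34 to 1.57. Psma1 changed most. Psma1 (probe set 1415695_at) read 441, 588, 687 and 730.2 on the QSC arrays, 1329, 1231, 2515 and 2633 on the ASC arrays and 493, 799, 802 and 749 on the NMC arrays. All ASC arrays lay above all QSC arrays, and the NMC arrays overlapped the QSC arrays. The change was 2.97-fold (log2 1.57 ± 0.15 (SE), adjusted p = 5.2e-07). Psma3 changed least. Psma3 (probe set 1448442_a_at) read 2552, 2076, 4275 and 4262 on the QSC arrays, 3175, 2978, 5383 and 4868 on the ASC arrays and 1929.8, 3351, 2873 and 3138 on the NMC arrays. Here the groups overlapped, since QSC replicates 3 and 4 read above ASC replicates 1 and 2. Psma3 was 1.26-fold higher in ASC (log2 0.34 ± 0.13 (SE), adjusted p = 0.0274), by 0.42 between small-sample arrays and 0.26 between two-cycle arrays. It was not called within either kit alone (adjusted p = 0.15 and 0.168) or without the term for the kit (adjusted p = 0.31). Psma2, Psma5 and Psma7 each rose about as much as the median of the ring, with log2 changes of 1.01, 1.19 and 1.05, and Psma4 and Psma6 rose by 0.86 and 0.48. Averaged over all probe sets of a gene, including weak ones, the change of Psma1 was 0.18 (adjusted p = 0.196) and that of Psma6 0.27 (adjusted p = 0.0873).

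The beta ring rose likewise, in 7 of 7 genes with a median of 0.95. Psmb5, the subunit with the chymotrypsin-like site that proteasome inhibitor drugs hit first, led it. Psmb5 (probe set 1415676_a_at) read 989, 810.1, 1009 and 1268 on the QSC arrays, 2648, 2632, 5763 and 5103 on the ASC arrays and 998, 1858, 1867 and 1654 on the NMC arrays. The lowest ASC array stood above every QSC and NMC array, and the two-cycle ASC arrays read highest. Psmb5 was 3.72-fold higher in ASC (log2 1.90 ± 0.16 (SE), adjusted p = 2.46e-07). The other catalytic subunits rose less: Psmb7, with the trypsin-like site, by 1.29 ± 0.15 and Psmb6, with the caspase-like site, by 0.84 ± 0.15 on the log2 scale. Of the structural beta subunits Psmb2, Psmb3 and Psmb4 rose by 1.23, 0.95 and 0.85. Psmb1 changed least. Psmb1 (probe set 1448166_a_at) read 1206, 1029, 720.5 and 1015 on the QSC arrays, 1501, 1511, 1871 and 1728 on the ASC arrays and 805, 891, 882 and 812 on the NMC arrays. ASC lay above QSC on all arrays, with a 1.67-fold difference (log2 0.74 ± 0.16 (SE), adjusted p = 0.000986). A further Psmb1 probe set fell, with a mean signal of 55.9 against 1164 for the set used. The mean of all Psmb1 probe sets, including a set under the signal minimum, changed by -0.09 (adjusted p = 0.483). For Psmb3 the highest QSC array read 1983 and the lowest ASC array 1965.

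Psmb8, Psmb9 and Psmb10, which replace Psmb5, Psmb6 and Psmb7 in the immunoproteasome, were called lower in ASC and higher in NMC, though for Psmb10 the fall in ASC was small. Psmb8 read 139.8, 89.1, 77.1 and 94.3 in QSC, 17.0, 6.70, 2.65 and 15.6 in ASC and 359.5, 372, 419 and 435 in NMC. It was low on every ASC array and high on every NMC array, with no overlap between any of the groups. Its log2 change was -2.20 ± 0.21 in ASC and 1.90 ± 0.21 in NMC, both against QSC, and signals this low lie near the constant of 14.7 added before the logarithm, which makes the fall smaller. Psmb9 changed by -1.75 ± 0.20 and 1.40 ± 0.21, and Psmb10 by -0.55 ± 0.20 (adjusted p = 0.0235) and 1.36 ± 0.20. The fall of Psmb10 in ASC was -0.86 between small-sample arrays and -0.23 between two-cycle arrays. It was not called with the two-cycle kit alone (adjusted p = 0.366), without scaling (-0.27, adjusted p = 0.305), with median centring (-0.11, adjusted p = 0.662) or with quantile normalization (-0.44, adjusted p = 0.0593), nor without QSC replicate 1 or 2 or ASC replicate 2 or 3 (adjusted p from 0.0589 to 0.0789).

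The ratio of each constitutive subunit to its inducible counterpart was then taken within each array, as a description. The log2 ratio of Psmb5 to Psmb8 was 2.70, 2.99, 3.48 and 3.56 in QSC, 6.39, 6.95, 8.38 and 7.40 in ASC and 1.44, 2.28, 2.12 and 1.89 in NMC. These ratios order the arrays and say nothing of the true proportion of the transcripts, since probe sets differ in brightness. The mean ratio rose by 4.10 in ASC and fell by 1.25 in NMC. As Psmb8 lay under the signal minimum on every ASC array, the size in ASC depended on the added constant, at 5.27 with a constant of 1 and 3.04 with one 4 times as large as here. For Psmb6 to Psmb9 the differences were 2.59 and -1.67, and for Psmb7 to Psmb10 1.83 and -1.42. In all 6 comparisons the groups of 4 arrays did not overlap. The pairs were chosen with the changes of their genes known, so the ratios add no independent evidence. Endothelial and fibroblast markers had the same order of groups as the inducible subunits, lowest in ASC and highest in NMC in the sums above, and their part in these ratios was not tested.

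**Figure D2:**
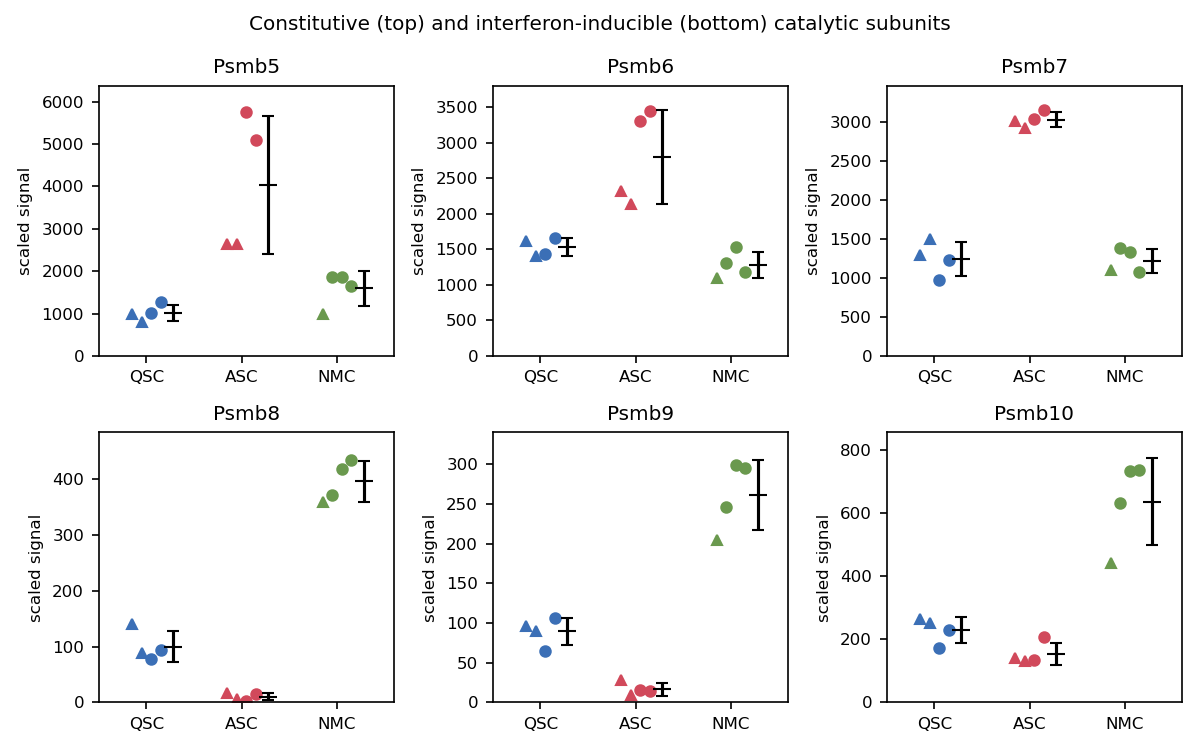
Scaled signal of Psmb5, Psmb6 and Psmb7 (top) and Psmb8, Psmb9 and Psmb10 (bottom) on each array, by group; triangles are small-sample and circles two-cycle kit arrays, and bars are the mean ± SD of 4 arrays. Psmb5 reads 2632 to 5763 in ASC against 810.1 to 1268 in QSC, while Psmb8 reads 2.65 to 17.0 against 77.1 to 139.8.

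The base rose by more than the core in the median: 1.38 for its 6 ATPases and 1.32 for its 3 other subunits, all 9 called higher, though the difference between core and base was not tested. Psmc5 had the largest change of all members. Psmc5 (probe set 1415740_at) read 302, 336, 278 and 436 on the QSC arrays, 1414, 1046, 1671 and 2012 on the ASC arrays and 392, 758, 672 and 520.1 on the NMC arrays. Every ASC array stood above every QSC and NMC array, at 4.34-fold the QSC level (log2 2.12 ± 0.19 (SE), adjusted p = 3.86e-07). Psmc6 changed least of the ATPases. Psmc6 (probe set 1417771_a_at) read 713, 863, 1149.5 and 1006 on the QSC arrays, 1568, 1744, 1889.8 and 1927 on the ASC arrays and 749.7, 774, 678 and 726 on the NMC arrays. It was 1.92-fold higher in ASC (log2 0.94 ± 0.14 (SE), adjusted p = 3.87e-05), again on all arrays. Psmc4 rose by 1.92 ± 0.18 (1.46 between small-sample arrays and 2.38 between two-cycle arrays), Psmc1 by 1.70 ± 0.13, Psmc3 by 1.07 and Psmc2 by 0.99. A dimmer probe set of Psmc4 did not pass the test, at 0.13 (adjusted p = 0.679).

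Among the other base subunits, Psmd1 and Psmd2 are the large scaffold subunits that dock ubiquitin carriers, and Psmd4 is a ubiquitin receptor. Psmd2 (probe set 1415831_at) read 1204, 1434, 1397 and 1469 on the QSC arrays, 3294, 2936, 3691 and 4089 on the ASC arrays and 1013, 1654, 1526 and 1422 on the NMC arrays. No QSC or NMC array reached the lowest ASC array, and the change was 2.52-fold (log2 1.33 ± 0.14 (SE), adjusted p = 1.32e-06). Psmd1 rose by 1.32 ± 0.18. Psmd4 (probe set 1418874_a_at) read 1199.9, 1218, 867 and 1203 on the QSC arrays, 1762, 1552, 2732 and 2701 on the ASC arrays and 778, 1178, 1178 and 1085 on the NMC arrays. Psmd4 was 1.9-fold higher in ASC (log2 0.92 ± 0.19 (SE), adjusted p = 0.000669), by 0.45 between small-sample arrays and 1.40 between two-cycle arrays, and the small-sample kit alone did not pass the test (adjusted p = 0.111).

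All 8 measured lid genes that the symbol rule covers rose, with a median of 1.53. Psmd6, a scaffold subunit of the lid, led. Psmd6 (probe set 1423697_at) read 373, 252, 597 and 772 on the QSC arrays, 1609.6, 2079.5, 2046 and 1926 on the ASC arrays and 738, 933, 746 and 681 on the NMC arrays. The ASC arrays stood together, while the QSC arrays were spread from 252 to 772. It was 4.07-fold higher in ASC (log2 2.02 ± 0.23 (SE), adjusted p = 3.06e-06), by 2.52 between small-sample arrays and 1.53 between two-cycle arrays. Psmd14, the deubiquitinating enzyme of the lid, rose by 1.42 ± 0.16, and Psmd7, its binding partner, by 1.73 ± 0.18. Psmd8 rose by 1.77, Psmd13 by 1.64, Psmd12 by 1.03 and Psmd3 by 0.98. Psmd7 no longer passed when all of its probe sets were averaged, including those under the signal minimum (0.24, adjusted p = 0.165). Psmd11, which helps to clamp the lid to the core, changed least by its brightest probe set. Psmd11 (probe set 1437080_s_at) read 2195, 1842, 1706 and 1469 on the QSC arrays, 2578, 2463, 1978 and 2125 on the ASC arrays and 1789, 1427, 1209 and 1230.1 on the NMC arrays. QSC replicate 1 read above ASC replicates 3 and 4. The difference was 1.27-fold (log2 0.35 ± 0.13 (SE), adjusted p = 0.0254) and was not called within either kit alone, at 0.32 (adjusted p = 0.239) and 0.37 (adjusted p = 0.074). Its other tested probe sets changed by 0.12 to 1.12. Without QSC replicate 2, QSC replicate 4 or ASC replicate 4 its adjusted p was 0.0607, 0.0681 and 0.0703, and Psma3 likewise missed the threshold without QSC replicate 2, ASC replicate 1 or ASC replicate 3, at 0.0748, 0.068 and 0.0687. Sem1, the small lid subunit whose symbol falls outside the rule, rose by 0.54 ± 0.17 (adjusted p = 0.0106).

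**Figure D3:**
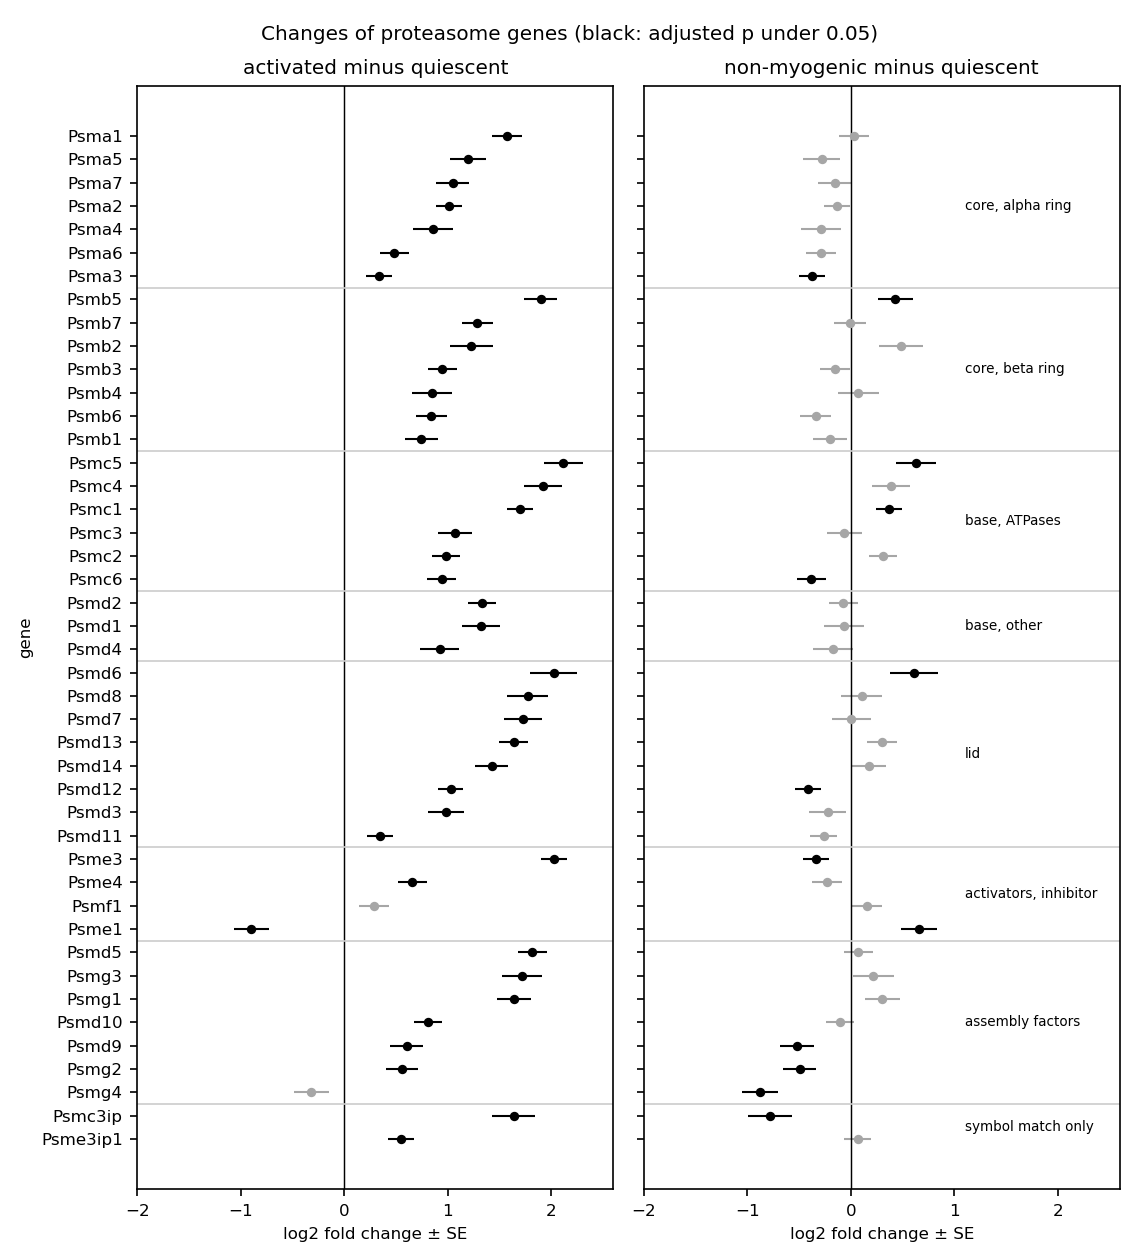
Log2 fold change ± SE of each tested member, in activated (left) and non-myogenic (right) against quiescent cells, by role and ordered by the change in activated cells; black points have an adjusted p under 0.05. On the left 41 points are black and above 0 and Psme1 is black and below 0; on the right 5 are black above 0 and 8 below.

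The alternative caps did not move as one. Psme3, which encodes the nuclear activator PA28 gamma, rose strongly. Psme3 (probe set 1418079_at) read 121, 134, 272 and 235 on the QSC arrays, 591, 556, 1018 and 1095 on the ASC arrays and 101, 221, 183 and 176 on the NMC arrays. All ASC arrays stood above all QSC and NMC arrays, at 4.07-fold the QSC level (log2 2.02 ± 0.12 (SE), adjusted p = 1.06e-08), and the change was 2.05 between small-sample arrays and 2.00 between two-cycle arrays. Psme4, which encodes the activator PA200, rose by 0.66 ± 0.14, with ASC arrays at 999.7 to 1310.1 and QSC arrays at 613 to 844.

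Psme1, which encodes a subunit of the interferon-inducible activator PA28 alpha/beta, was the exception among all members. Psme1 (probe set 1417056_at) read 557, 316, 463 and 615 on the QSC arrays, 226, 233, 255 and 277 on the ASC arrays and 659, 792, 819 and 934 on the NMC arrays. Every ASC array lay below every QSC array and every NMC array above, so the 3 groups did not overlap. It was 1.87-fold lower in ASC (log2 -0.90 ± 0.17 (SE), adjusted p = 0.000324), by -0.83 between small-sample arrays and -0.97 between two-cycle arrays, and 1.58-fold higher in NMC (log2 0.66 ± 0.17 (SE), adjusted p = 0.00597). It was thus ordered across the groups as the inducible catalytic subunits were. Psmf1, which encodes the inhibitor PI31, did not pass the test. Psmf1 (probe set 1451337_at) read 168, 161, 137 and 154 on the QSC arrays, 185, 177, 205 and 199.6 on the ASC arrays and 185, 133, 176 and 204 on the NMC arrays. The ASC arrays stood just above the QSC arrays, and the NMC arrays overlapped both (log2 0.29 ± 0.14 (SE), adjusted p = 0.0926 in ASC). With the other scalings of the arrays Psmf1 was called higher in ASC, at 0.57 without scaling (adjusted p = 0.011), 0.73 with median centring (0.000752) and 0.40 with quantile normalization (0.0255), so its call depended on the scaling. The mean of all its probe sets changed by -0.26 (adjusted p = 0.122).

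**Figure D4:**
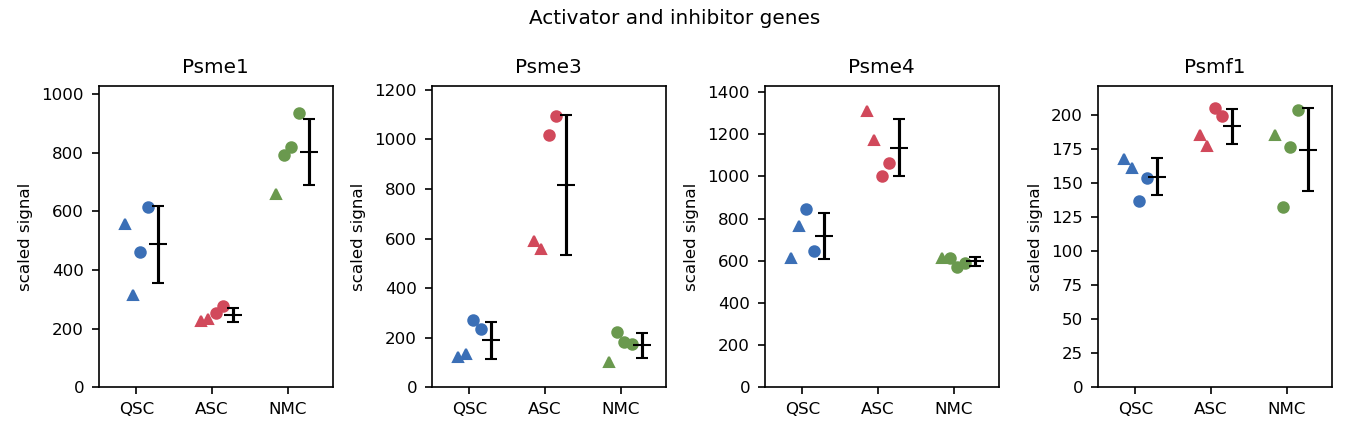
Scaled signal of the activator genes Psme1, Psme3 and Psme4 and the inhibitor gene Psmf1 on each array, by group, with mean ± SD of 4 arrays; triangles are small-sample and circles two-cycle kit arrays. Psme1 is lowest in ASC (226 to 277) and highest in NMC (659 to 934), Psme3 and Psme4 are highest in ASC, and the groups lie close together for Psmf1.

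Of the 7 assembly factor genes 6 rose, with a median of 0.81, and none was called lower. Psmd5, a chaperone of the base, led. Psmd5 (probe set 1423234_at) read 284, 289, 329.9 and 369.9 on the QSC arrays, 1113, 1061, 1376 and 1088 on the ASC arrays and 319, 303, 355 and 420.5 on the NMC arrays. No QSC or NMC array came near the ASC range, and the rise was 3.53-fold (log2 1.82 ± 0.14 (SE), adjusted p = 7.09e-08). The other base chaperones, Psmd9 and Psmd10, rose by 0.60 ± 0.16 and 0.81 ± 0.13. For Psmd9 a further probe set fell, and the mean of its probe sets changed by -0.12 (adjusted p = 0.517). Psmg1 and Psmg2 form a pair that builds the alpha ring: Psmg1 rose by 1.64 ± 0.16 and Psmg2 by 0.56 ± 0.15, with 0.91 between small-sample arrays and 0.21 between two-cycle arrays. Psmg3 and Psmg4 form another pair. Psmg3 rose by 1.72 ± 0.19, while Psmg4 did not. Psmg4 (probe set 1435431_at) read 522, 446, 171 and 227 on the QSC arrays, 345, 276, 198 and 192 on the ASC arrays and 197, 103, 135 and 131 on the NMC arrays. In every group the small-sample arrays read higher than the two-cycle arrays, and QSC and ASC overlapped. Its difference in ASC was log2 -0.32 ± 0.17 (SE), adjusted p = 0.108, and -0.46 without QSC replicate 3 (adjusted p = 0.0205). Psmc3ip, a meiotic recombination factor that met the rule by symbol alone, rose by 1.64 ± 0.21, and Psme3ip1 by 0.55 ± 0.13.

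Both labelling kits gave the same picture with different sizes. The median change of the 44 members was 0.96 between the 2 ASC and 2 QSC arrays of the small-sample kit, and 1.23 between those of the two-cycle kit. Fits on 1 kit alone called 32 members higher and 1 lower in the first and 37 higher and 1 lower in the second. Of all genes 24.4% were higher and 27.8% lower in the first fit, and 29.6% and 38.5% in the second. For Psma4, Psmb1, Psmb4, Psmb6, Psmd3, Psmd4 and Psmd9 the call was lost with the small-sample kit alone, at log2 changes of 0.56, 0.43, 0.51, 0.56, 0.59, 0.45 and 0.31, and for Psma6 and Psmg2 with the two-cycle kit alone, at 0.39 and 0.21. Psma3 and Psmd11 were called with neither kit alone. The 2 small-sample ASC arrays also carried more RNA of differentiating muscle. Within the small-sample and the two-cycle kit, the log2 change in ASC against QSC was 6.81 and 2.72 for the embryonic myosin gene Myh3. For the myogenic factor gene Myog it was 2.36 and 0.15. The part of the kit or of differentiation in the sizes was not tested.

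**Figure D5:**
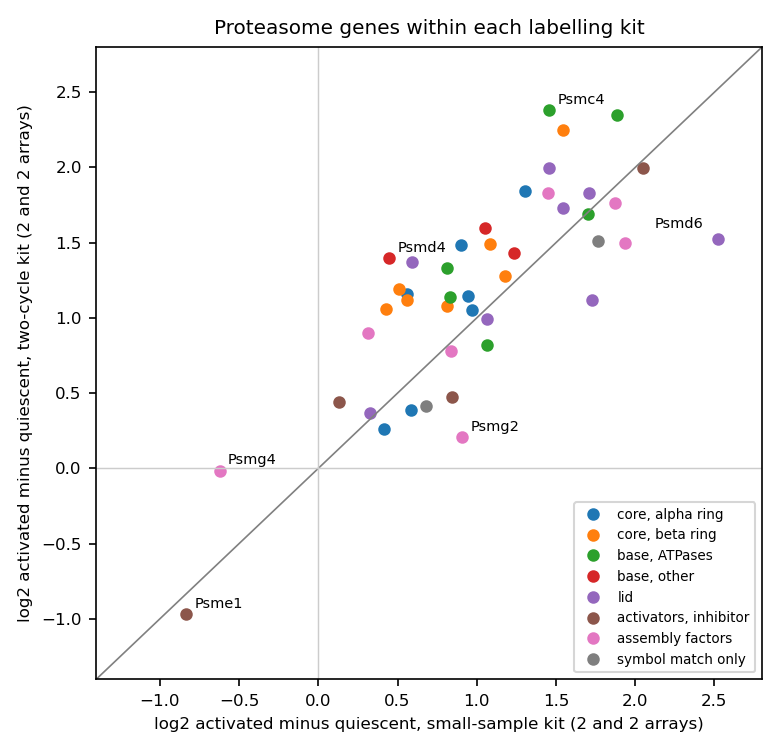
Log2 change in activated against quiescent cells of each tested member within the small-sample kit (horizontal) and within the two-cycle kit (vertical), 2 against 2 arrays in each, coloured by role; the line marks equal change. Nearly all points lie above 0 on both axes. Psme1 (-0.83 and -0.97) and Psmg4 (-0.62 and -0.01) lie below 0 on both. Psmd6 (2.52 and 1.53) and Psmd4 (0.45 and 1.40) lie farthest to either side of the line.

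Non-myogenic cells, in contrast, had no general shift of the proteasome against quiescent satellite cells. Of the 44 members 5 were called higher, where 26.6% of all genes were, and 8 lower, where 26.4% were, and 31 did not pass the test. The median change was -0.07, against -0.03 for all genes, and no member reached a 2-fold difference. Both comparisons rest on the same QSC arrays. Higher in NMC were Psme1, described above, Psmc5 (log2 0.63 ± 0.19), Psmd6 (0.61 ± 0.23), Psmb5 (0.43 ± 0.17, adjusted p = 0.0419) and Psmc1 (0.37 ± 0.13). Psmc1 (probe set 1416005_at) read 306, 278, 538 and 519 on the QSC arrays, 1080.3, 893, 1703 and 1770.2 on the ASC arrays and 329, 755, 706 and 744 on the NMC arrays. NMC replicate 1, the only NMC array of the small-sample kit, read far below the other NMC arrays and near the small-sample QSC arrays.

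Lower in NMC were Psmg4 (-0.88 ± 0.17), Psmc3ip (-0.78 ± 0.21), Psmd9 (-0.52 ± 0.16), Psmg2 (-0.49 ± 0.16), Psmd12 (-0.41 ± 0.13), Psmc6 (-0.38 ± 0.14), Psma3 (-0.38 ± 0.13) and Psme3 (-0.34 ± 0.13). Of the 7 assembly factor genes 3 were thus called lower and none higher, where 26.4% and 26.6% of all genes were. Psmg1 was called higher without scaling (0.69, adjusted p = 0.00851). It was also called with the two-cycle kit alone (0.56, adjusted p = 0.0189) and without NMC replicate 1 (0.47, adjusted p = 0.0464). Psmg2 and Psmd9 lost their calls without scaling (adjusted p = 0.711 and 0.464), among other settings. For Psmg2 the NMC arrays read 229, 219.9, 218 and 221, all below the QSC arrays at 279 to 396. These calls were not stable: without scaling 12 members were higher and 1 lower, where 38.9% and 10.1% of all genes were, and Psma3, Psmc6 and Psme3 then lay slightly above 0. Counts fell to 3 and 3 without the term for the kit, to 1 and 7 without QSC replicate 3, to 3 and 4 without QSC replicate 4 and to 5 and 5 without NMC replicate 1. Without NMC replicate 2, 3 or 4 they were 2 and 7, 3 and 5, and 3 and 5. Of all genes 22.4% were higher and 21.1% lower without the term for the kit. With 1 of these arrays left out, 23.8% to 25.3% of all genes were higher and 23% to 24.2% lower.

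Set against non-myogenic cells, activated satellite cells again held more signal of nearly every member. Of the 44 genes 42 were higher in ASC, where 34.1% of all genes were, Psme1 was lower, where 38.3% were, and Psmf1 did not pass. The median was 1.20, against -0.07 for all genes. The largest differences were those of Psmc3ip (2.42 ± 0.21), which met the rule by symbol alone, and Psme3 (2.36 ± 0.13), and Psme1 differed by -1.56 ± 0.17. The mean signal of Psmc3ip in NMC was 40.6, under the minimum of 47.03, so its size depends in part on the added constant. With median centring 47.8% of all genes were higher and 27.2% lower, and 43 members were higher and 1 lower. This comparison shares the ASC arrays with the first.

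At the level of single probe sets 54 of the 68 tested were higher in ASC than in QSC and 3 lower, where 30.7% and 37.6% of all 12072 were. In NMC 5 were higher and 12 lower than in QSC, against 24% and 27.4%, and between ASC and NMC 60 were higher and 2 lower, against 34.1% and 35.9%. Several probe sets were tested for 18 of the genes. All of them rose in ASC for 8 genes, none rose for Psmf1, and for the other 9 some rose and some did not. A probe set that fell beside one that rose was found for Psmb1 (-0.77 and 0.74) and Psmd9 (-0.84 and 0.60). The Psmb1 set that fell had a mean signal of 55.9, near the minimum of 47.03. The lowest change of a probe set that did not pass was -0.42 for Psma6, -0.43 for Psmd4, 0.22 for Psmb4, 0.13 for Psmc4, 0.39 for Psmc6, 0.12 for Psmd11 and 0.23 for Psmg2. Probe sets of a gene can read different transcript ends, which was not tested here.

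Genes that work beside the proteasome were taken from lists of known partners. Of 13 genes for accessory proteins, 9 were higher in ASC and 1 lower, against 31.8% and 38.2% of all genes. The largest rises were those of Uchl5 and Usp14, the deubiquitinating enzymes that bind the regulatory particle, with log2 changes of 2.28 ± 0.15 and 2.14 ± 0.18. Uchl5 read 259.6, 206, 165 and 204 in QSC, 997, 1166, 939 and 1158 in ASC and 244, 203, 169 and 152 in NMC. Rad23b, a shuttle for ubiquitinated proteins, rose by 1.35 ± 0.19 and Pomp, the maturation factor of the core, by 1.11 ± 0.15. Zfand5, a ubiquitin-binding activator of the proteasome known from muscle atrophy, fell by 1.35 ± 0.14.

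Upstream of the proteasome the lists were mixed, beside 31.8% of all genes higher and 38.2% lower. Of 10 genes for enzymes that activate or conjugate ubiquitin, 4 rose and 4 fell, which is near the share over all genes. Cdc34 rose by 2.44 ± 0.18, Ube2n by 1.21 ± 0.14 and Ube2k by 1.18 ± 0.17, and Ube2b fell by 0.94 ± 0.16. Of 9 genes of the segregase p97, which pulls ubiquitinated proteins out of complexes, 5 rose and 1 fell, with Nploc4, an adaptor of p97, at 1.21 ± 0.16, and the adaptors Faf1 and Ubxn1 at 0.95 and 0.95. Of 7 ubiquitin ligase genes with known roles in muscle, 2 rose and 2 fell, with rises for Mdm2 (1.71 ± 0.21), the ligase of p53, and Stub1 (1.52 ± 0.15), a chaperone-linked ligase. With median centring the counts were 5 and 2 for the activating and conjugating enzymes, 7 and 0 for p97 and 3 and 0 for the ligases. Of all genes 46.9% were then higher and 24.4% lower. With the mean of all probe sets of a gene the counts were 4 and 4, 4 and 3, and 3 and 1. There 30.4% and 39.3% of all genes were higher and lower. For p97 the small-sample kit alone gave 3 and 1.

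Genes of transcription factors known to act on proteasome genes, and of proteins that regulate these factors, were lower in ASC in 7 of 12 cases, where 38.2% of all genes were. Nfyc rose by 0.28 (adjusted p = 0.044), a call lost under 17 of 27 alternatives, among them either kit alone and most fits that left out 1 array, and 4 did not pass the test. With median centring 5 were lower and 3 higher, where 24.4% and 46.9% of all genes were, and Nfya, a subunit of NF-Y, lost its call as Nfe2l1 did. Nfe2l1, the factor that restores proteasome gene transcription when proteasomes are inhibited, read 291, 413, 291 and 270.0 in QSC, 256, 229, 184 and 182 in ASC and 401, 385, 368 and 363 in NMC, and was lower in ASC by -0.53 ± 0.14 (adjusted p = 0.00302). The fall was not called without scaling, with median centring or within the small-sample kit, and was as small as -0.09 under these settings. Nfe2l2, the related stress factor, differed by -0.26 ± 0.16 (adjusted p = 0.145). The small Maf genes Maff and Mafk, whose proteins pair with both, fell by 4.16 ± 0.31 and 3.23 ± 0.20, and the atrophy-linked factors Foxo1 and Foxo3 by 2.64 ± 0.25 and 2.35 ± 0.21. Maff read 2724, 2639, 1240.2 and 1590.0 in QSC against 93.5, 87.3, 101 and 98.1 in ASC and 394, 137, 145 and 413 in NMC, so it was highest in the quiescent cells. Levels of RNA say nothing of the activity of these proteins.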

How the data were processed

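The authors deposited 1 linear intensity value per probe set and array, made with MAS5 per the submitters' processing notes. The version of MAS5 is not given in the sources used. RNA was isolated with a column kit and labelled with biotin by a small-sample or a two-cycle kit, per the labels' protocols. Gene names came from the annotation of the platform. For 20351 of the 20380 probe sets with 1 gene the symbol was checked by Entrez ID. Another 691 with several genes were left out. Each of the 12 arrays was scaled to a trimmed mean of 235 (2% trimmed at each tail), and log2(signal + 14.7) was used, so fold changes of weak genes are understated. Where a gene had several probe sets, the one whose log2 signal had the highest mean was used. The 7960 genes whose mean signal reached 47.03 entered 1 fit over all arrays (limma 3.58.1, R 4.3.3, empirical Bayes), with group and kit as terms and 8 residual degrees of freedom. Calls were made at 0.05 on p-values adjusted by Benjamini-Hochberg over these genes. Probe sets were fitted the same way over 12072. Pair ratios are given as a description, with an exact permutation test in Python 3.11.15 reported once, below. No detection calls were used. Precision is limited by the number of arrays.

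The members, gene lists and tests were chosen with earlier results of these data known. Values on every array are given for the members with the largest and the smallest change of each role, for members against the common direction and for members not called in ASC. Psmc1 and Psmd6 in NMC, and Maff, Nfe2l1 and Uchl5, were given by array after their values were seen. Up to 4 genes of each partner list are named by smallest adjusted p, with Psmb8, Psmb9, Psmb10, Nfe2l1, Nfe2l2 and Pomp. Sem1, Myh3, Myog, Nfya and Nfyc were picked with their values in view. The fit was tested on simulated data. Alternatives were unscaled values, median centring, quantile normalization, no term for the kit, each kit alone, other pseudocounts and signal minimums, the mean of all probe sets of a gene, weights for arrays, robust variances with a trend, only the groups compared, a replicate block, and each array left out. Promoter sequences are RefSeq's (GRCm38.p6). Figures were drawn with matplotlib 3.10.9.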

Additional observations from a re-analysis of the deposited data

Results flagged for a closer look

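In 6 of the 132 groups of 4 arrays (44 genes in 3 groups) 1 array stood apart from the other 3 by Dixon's test on log2 levels. Chance alone marks about 1 in 20 groups. On NMC replicate 1, the only NMC array of the small-sample kit, 4 core and base genes were low. Psmb3 stood at 9.67 there against 10.80 to 10.88 on the other NMC arrays, Psmb4 at 10.34 against 11.19 to 11.24, Psmc1 at 8.43 against 9.49 to 9.59, and Psma1 at 8.99 against 9.58 to 9.67. On QSC replicate 3 the alpha subunit gene Psma6 was high, at 11.33 against 10.89 to 10.95, and the ubiquitin receptor gene Psmd4 was low, at 9.78 against 10.25 to 10.27. Psma6 and Psmd4 rose in ASC in every fit that left out 1 array, and Psmc1 was called higher in NMC without NMC replicate 1 but not without any other single NMC array (limma adjusted p from 0.0513 to 0.0673) or without QSC replicate 3 or 4 (0.0511 and 0.0732). What set these arrays apart was not tested.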

How the results depend on the processing

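Of the 42 members called between ASC and QSC 29 kept their call under all 27 alternatives and 40 kept their direction. For ASC against NMC this held for 36 and 43 of 43, and for NMC against QSC for 1 (Psmg4) and 10 of 13. The directions that turned were Psmb1 (-0.0919) and Psmd9 (-0.12) in ASC with the mean of all probe sets, and Psma3 (0.0232), Psmc6 (0.0163) and Psme3 (0.0384) in NMC without scaling; the cause was not tested. The 6 pair ratios kept their direction. Their two-sided exact permutation p was 0.0286, the smallest that 4 against 4 arrays allow, and 0.0571 for Psmb5 to Psmb8 in NMC without NMC replicate 1; the choice of pairs with the results known makes it no independent evidence. The differences had ranges over arrays left out of 3.73 to 4.39 and -1.41 to -1.09 (Psmb5 to Psmb8), 2.45 to 2.84 and -1.72 to -1.58 (Psmb6 to Psmb9) and 1.79 to 1.95 and -1.54 to -1.29 (Psmb7 to Psmb10).

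Counts of members called in NMC against QSC moved most. In all, 13 were called as reported, 6 with no term for the kit (3 higher, 3 lower) and 3 with the small-sample kit alone (1 and 2), which has fewer arrays. Of all genes 22.4% were higher and 21.1% lower with no term for the kit, and 12.5% and 7.9% with the small-sample kit alone. Called higher were 12 without scaling (1 lower), 9 with the two-cycle kit alone, and 3 each with quantile normalization, no signal minimum, and only the groups compared. In these 5 settings 38.9%, 26.5%, 26.4%, 18.7% and 25.8% of all genes were higher. Leaving out 1 array gave 7 to 13 in all, 1 to 5 higher and 4 to 8 lower. For probe sets, 7 were called with no term for the kit (3 higher, 4 lower) and 1 with the small-sample kit alone (0 higher, 1 lower). Of all probe sets 19.9% were higher and 21.8% lower in the first fit, and 10.3% and 6.88% in the second. Called higher were 13 without scaling (1 lower), 8 with the two-cycle kit alone, and 3 each with quantile normalization and no signal minimum, and 7 were lower with a signal minimum at the trimmed mean. Leaving out 1 array gave 10 to 19 probe sets in all, 1 to 5 higher and 7 to 14 lower.

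Between ASC and QSC 39 to 41 members were higher and 1 to 2 lower with 1 array left out, and 3 to 5 probe sets were lower. Lower probe sets numbered 1 with median centring, quantile normalization or the higher signal minimum, and 5 with no minimum. Between ASC and NMC they numbered 1 with median centring, quantile normalization, the small-sample kit alone or the higher minimum.

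Replicate numbers are shared across groups, but no label says that they pair samples, and the correlation of same-numbered arrays after group means ran from -0.37 to 0.39. With the replicate block 39 members rose (Psma3 and Psmd11 were lost, adjusted p = 0.0559 and 0.0519) and 1 fell in ASC, and in NMC 4 were called (1 higher, 3 lower) and 5 probe sets (1 higher, 4 lower).

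Weak probe sets, near the added constant, give understated changes.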

Other observations

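Psme2, the partner of Psme1 in the interferon-inducible activator, has no probe set of its own here: the probe set 1417189_at is assigned to Psme2 and Psme2b together. Its scaled signal was 387, 281, 438 and 606 in QSC, 191, 172, 223 and 205 in ASC, and 632, 922, 1014 and 1024 in NMC. The groups did not overlap, and their order was that of Psme1, Psmb8 and Psmb9. As the probe set reads 2 genes it was left out of the tests.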
